A study of Rattus norvegicus with 20 samples.

Results

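The 5 genes described here, Plekhg6, Micalcl, Barhl1, Brs3 and Kctd8, were chosen by name as genes whose signal was higher in INS-1 cells given C4b-binding protein (C4BP). They are 5 of 18166 genes measured, each by the 1 probe set that the array annotation assigns to it alone. The choice used the C4BP differences themselves, so those differences are given below as a description. The test is of the effect of islet amyloid polypeptide (IAPP). Its averaged estimate is independent of C4BP differences taken within wells with IAPP and within wells without it. Which comparisons the choice used is not stated, and for a choice on other pairs of groups this would not hold. INS-1 cells come from a rat insulinoma, secrete insulin and are used as a model of the pancreatic beta cell. IAPP, or amylin, is a beta-cell hormone that aggregates into amyloid, and C4BP is a plasma protein that inhibits complement and binds IAPP.

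The 20 arrays (Affymetrix Rat Gene 2.0) fall by their titles into 4 groups of 5, C4BP, C4BPD, IAPP and DMSO. Under the likely reading, from the study design, C4BP wells received IAPP together with C4BP, C4BPD wells C4BP without IAPP, IAPP wells IAPP alone, and DMSO wells the solvent (1%). The study gives IAPP as 77 uM and C4BP as 0.6 uM (300 ug/ml each in the sample fields), and RNA was taken after 10 h from cells that had been kept as 5 clones for 10 passages. The last letter of C4BPD is not spelled out, no label ties a replicate number to a clone, and a separate treatment field matches the title reading in 3 of 20 arrays, so every group rests on the titles. In the order the samples are listed, that field repeats IAPP, IAPP plus C4BP, C4BP and DMSO without a break. Sorted by their number, the titles repeat IAPP, C4BP, C4BPD and DMSO in the same way, but the samples are not listed by that number. How the field was filled was not tested. The replicates are of 1 cell line, and whether they are separate wells or separate clones is not stated. They are called wells here, and p-values measure the spread between them. The number of arrays limits the precision, array medians ran from 170.01 to 182.36, and a difference in a well's signal cannot tell fewer expressing cells from less RNA per cell. The 8 measured of 9 beta-cell markers were brighter than 54.6% (Nkx6-1) to 99.9% (Chga) of all genes, with Mafa at 72.8% and Ins1 at 98.3%. Of the alpha-cell markers, the glucagon gene Gcg was brighter than 99.8% and Irx2 than 38.4%. The 10 measured markers of delta cells, fibroblasts, blood and endothelium were brighter than 10.6% (Lyz2) to 43.2% (Col1a1), and 3 of them, Sst, Col1a1 and Pdgfra, were above the 95th percentile of olfactory receptor genes.

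The 5 genes are not known to share a pathway. Plekhg6 encodes a guanine nucleotide exchange factor that acts on myosin during cell division. Micalcl was named for its likeness to the C-terminal end of the MICAL proteins, enzymes that oxidise actin filaments, and its mouse product binds the kinase ERK2 in testis. Barhl1 encodes a homeodomain transcription factor of developing neurons and inner-ear hair cells. Brs3 encodes an orphan receptor of the bombesin receptor family, which signals through Gq, and mice without it become obese. Kctd8 encodes an auxiliary subunit that binds GABA-B receptors and shapes their signalling. Id1 and Id3 block helix-loop-helix factors and are classical targets of bone morphogenetic protein (BMP) and SMAD signalling. They were the 2 genes with a larger averaged C4BP rise than Plekhg6.

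Of the 5 genes, 4 match a RefSeq rat gene (GRCr8) by gene ID. Micalcl does not: RefSeq now lists it as an older symbol of Mical2, and the array has a separate probe set named Mical2. The RefSeq promoter table holds windows of 250 bases before to 50 bases after a listed start for 3 of the 5. The Brs3 window lies inside the RefSeq span of that gene (chrX:139944080-139969637), not at its first base. The second Mical2 window also lies inside its gene (chr1:175780441-175965157). The windows are shown because these genes moved together with C4BP, with 2 of the motifs searched for in capitals where they occur.
Kctd8 promoter, chr14:39126960-39127259, + strand, GRCr8: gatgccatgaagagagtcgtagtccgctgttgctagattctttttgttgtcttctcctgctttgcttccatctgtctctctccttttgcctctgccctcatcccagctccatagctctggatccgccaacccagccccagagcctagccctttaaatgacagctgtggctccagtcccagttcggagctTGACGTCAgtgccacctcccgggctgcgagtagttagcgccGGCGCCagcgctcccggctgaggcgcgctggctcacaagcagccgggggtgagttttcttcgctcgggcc
Brs3 promoter, chrX:139963671-139963970, + strand, GRCr8: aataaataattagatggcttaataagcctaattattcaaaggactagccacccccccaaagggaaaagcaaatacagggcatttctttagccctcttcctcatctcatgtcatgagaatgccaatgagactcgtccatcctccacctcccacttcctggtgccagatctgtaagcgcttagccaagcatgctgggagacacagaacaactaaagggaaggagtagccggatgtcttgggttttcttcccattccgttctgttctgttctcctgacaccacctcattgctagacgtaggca
Mical2 first start, chr1:175780196-175780495, + strand, GRCr8: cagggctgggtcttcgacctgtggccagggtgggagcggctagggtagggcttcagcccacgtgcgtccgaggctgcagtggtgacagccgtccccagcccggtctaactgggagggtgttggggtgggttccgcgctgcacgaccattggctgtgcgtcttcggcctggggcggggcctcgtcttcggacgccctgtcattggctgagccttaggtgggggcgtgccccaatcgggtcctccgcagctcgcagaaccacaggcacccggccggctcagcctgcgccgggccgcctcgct
Mical2 second start, chr1:175926053-175926352, + strand, GRCr8: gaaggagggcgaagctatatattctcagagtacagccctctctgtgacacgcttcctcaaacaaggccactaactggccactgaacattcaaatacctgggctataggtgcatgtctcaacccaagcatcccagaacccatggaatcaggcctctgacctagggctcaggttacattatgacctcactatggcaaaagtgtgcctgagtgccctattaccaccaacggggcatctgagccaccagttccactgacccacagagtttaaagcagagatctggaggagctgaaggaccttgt
In the Kctd8 window the capitals mark TGACGTCA, the cAMP response element, which starts 61 bases before the gene start, and GGCGCC, a GC-rich SMAD-binding motif, which starts 20 bases before it. On either strand, TGACGTCA occurs in 1.83% and GGCGCC in 11.0% of the 33469 promoter windows in the table. The Brs3 and second Mical2 windows hold neither, nor does the first Mical2 window. The shorter SMAD motif CAGAC, found in 50.1% of windows, is in none of these 4. The E-box CANNTG, found in 72.1%, occurs at 2 places in the Kctd8 window, at 1 in each Mical2 window and at 0 in the Brs3 window. The antioxidant motif TGACNNNGC, found in 12.1%, occurs at 1 place, in the first Mical2 window. None of the motifs overlaps another in the Kctd8 window. A match is a description of the letters and no measurement of binding. The windows differ in base composition: 70.3% of bases are G or C for the first Mical2 start, 59.7% for Kctd8, 51.0% for the second Mical2 start and 47.0% for Brs3, with a median of 51.7% over all windows.

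All 5 genes had higher signal in both groups given C4BP, and in none did an array with C4BP overlap an array of its partner without it. The choice of the genes favours such separation, which 0.506% of all genes showed in both comparisons. Plekhg6 had the largest difference, 2.24-fold in C4BP over IAPP and 2.83-fold in C4BPD over DMSO, and Brs3 and Kctd8 the smallest, under 1.4-fold. With IAPP, 4 of the 5 fell, Micalcl and Brs3 the most, and Plekhg6 did not pass the test, where 4.47% of all genes fell. Grouped by the treatment field in place of the titles, the averaged C4BP difference was below 0 for all 5 (-0.46 ± 0.28 for Plekhg6, SE). In that grouping 0 of all genes passed in limma, so these values are no sign of a fall. The values of every array are shown in the plot of intensity by array.

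**Figure D1:**
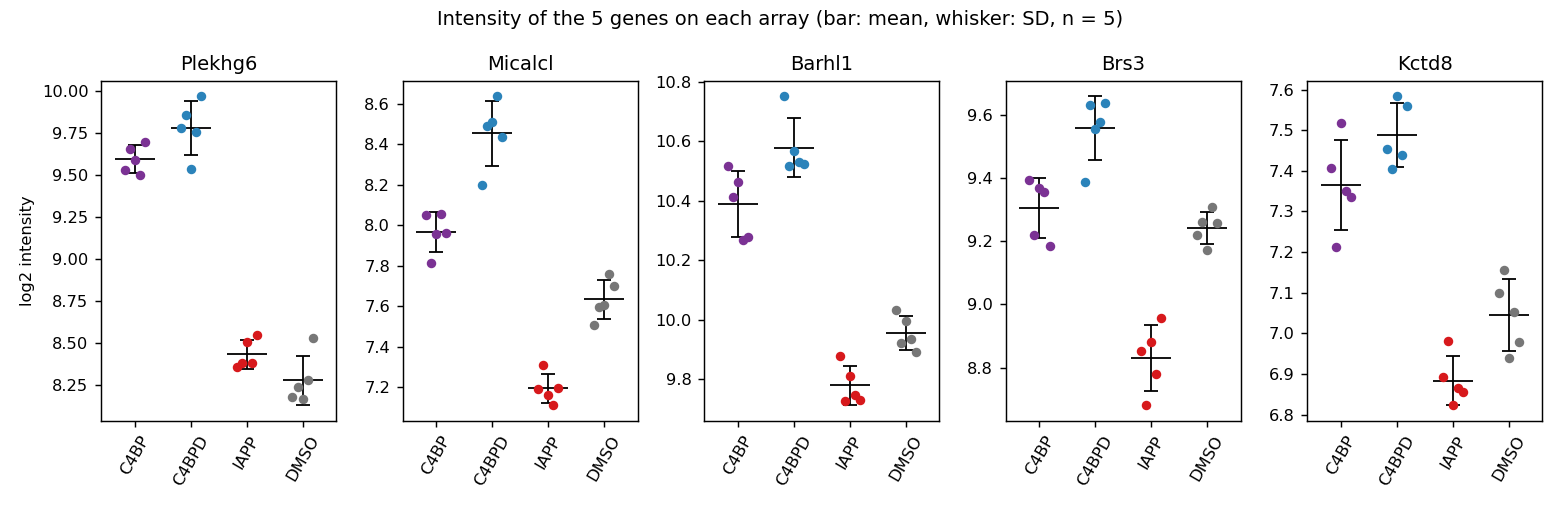
Log2 intensity (vertical axis, a separate scale for each gene) of the 5 genes on each of 20 arrays, by title group, with the group mean (bar) and SD (whisker, n = 5). For every gene the C4BP points lie above the IAPP points and the C4BPD points above the DMSO points, and Micalcl is the only one of the 5 in which no 2 groups overlap.

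Plekhg6 (probe set 17795026) had intensities of 738, 807, 771, 724 and 830 in C4BP wells, against 327, 333, 363, 333 and 374 in IAPP wells. It had 877, 927, 741, 863 and 1001 in C4BPD wells, against 289, 301, 288, 310 and 369 in DMSO wells. Every array with C4BP was thus above every array without it, while the C4BP and C4BPD arrays overlapped, as did IAPP and DMSO. How many of all genes show such a full separation was not counted. Separation in both partner comparisons alone was seen in 0.506%. The difference was 1.16 ± 0.07 on the log2 scale (SE) in C4BP over IAPP and 1.50 ± 0.07 in C4BPD over DMSO. The first minus the second was -0.34, with a 95% interval of -0.56 to -0.12, given without a test because the choice of the genes bears on it. Averaged over wells with and without IAPP, the C4BP difference of 1.33 had rank 3 among 18166 genes, ranked from the largest rise down.

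Micalcl (probe set 17619664) had intensities of 265, 225, 249, 266 and 249 in C4BP wells, against 146, 159, 143, 138 and 147 in IAPP wells. It had 294, 360, 364, 398 and 346 in C4BPD wells, against 182, 194, 195, 216 and 208 in DMSO wells. The 4 groups did not overlap, in the order C4BPD, C4BP, DMSO, IAPP. How many of all genes show this in every pair of groups was not counted. The log2 difference was 0.77 ± 0.07 (SE) in C4BP over IAPP and 0.82 ± 0.07 in C4BPD over DMSO, and the first minus the second was -0.05 (95% interval -0.25 to 0.15). Signal was low in IAPP wells, where the mean of 147 ± 7.44 (SD, n = 5) lay under the median of all probe sets (7.47 on the log2 scale).

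The probe set named Mical2, which RefSeq places in the same gene as Micalcl, had an intensity of 481 ± 22.5 in C4BP, 493 ± 31.0 in C4BPD, 512 ± 20.6 in IAPP and 516 ± 56.1 in DMSO wells (SD, n = 5 each). Its averaged C4BP difference was -0.08 on the log2 scale, with 1 of 10 arrays in the direction of Micalcl (limma, adjusted p = 0.473), and its averaged IAPP difference was -0.02 (adjusted p = 0.857). The probe set named Micalcl was thus higher by 0.80 in the averaged contrast in which that of Mical2 did not pass the test. Which transcripts each probe set detects was not tested.

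Barhl1 (probe set 17771009) had intensities of 1466, 1364, 1413, 1232 and 1242 in C4BP wells, against 942, 847, 899, 859 and 849 in IAPP wells. It had 1723, 1463, 1518, 1480 and 1472 in C4BPD wells, against 1048, 970, 1020, 980 and 949 in DMSO wells. The groups stood in the order C4BPD, C4BP, DMSO, IAPP, and of the 6 pairs of groups only C4BPD and C4BP overlapped, by 1 array. The share of all genes separated in this way was not counted. The log2 difference was 0.61 ± 0.06 (SE) in C4BP over IAPP and 0.62 ± 0.06 in C4BPD over DMSO, or 1.53-fold and 1.54-fold. The first minus the second was -0.01 (95% interval -0.18 to 0.15).

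Brs3 (probe set 17874662) had intensities of 672, 596, 661, 655 and 582 in C4BP wells, against 463, 411, 471, 440 and 497 in IAPP wells. It had 670, 792, 753, 763 and 795 in C4BPD wells, against 597, 613, 576, 633 and 612 in DMSO wells. The C4BP and DMSO arrays overlapped, with means of 633 ± 41.2 and 606 ± 21.2 (SD, n = 5 each). All IAPP arrays were below both, and C4BPD arrays stood highest apart from 1 that overlapped the C4BP arrays. The share of all genes with this order was not counted. The log2 difference was 0.47 ± 0.06 (SE) in C4BP over IAPP and 0.31 ± 0.06 in C4BPD over DMSO. The first minus the second was 0.16 (95% interval -0.01 to 0.33).

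Kctd8 (probe set 17689718) had intensities of 170, 148, 183, 163 and 162 in C4BP wells, against 119, 126, 113, 117 and 116 in IAPP wells. It had 175, 169, 192, 173 and 189 in C4BPD wells, against 137, 143, 123, 133 and 126 in DMSO wells. Every array with C4BP was above every array without it, a separation whose share among all genes was not counted. C4BP overlapped C4BPD, and IAPP overlapped DMSO. The log2 difference was 0.48 ± 0.06 (SE) in C4BP over IAPP and 0.44 ± 0.06 in C4BPD over DMSO, and the first minus the second was 0.04 (95% interval -0.12 to 0.20).

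Kctd8 was the dimmest of the 5. Its means in C4BP, IAPP and DMSO wells (7.36, 6.88 and 7.04 on the log2 scale) lay under the median of all probe sets, and that in C4BPD wells (7.49) just over it. As a yardstick for genes a beta-cell line is not thought to use, 1185 olfactory receptor genes had a median of 5.31 and a 95th percentile of 7.39 on the same scale. The Kctd8 means in C4BP, IAPP and DMSO wells and the Micalcl mean in IAPP wells (7.19) were under that 95th percentile, so their signal may be no more than background. Plekhg6, Barhl1 and Brs3 were above it in every group, brighter than at least 99.2% of olfactory receptor genes.

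**Figure D2:**
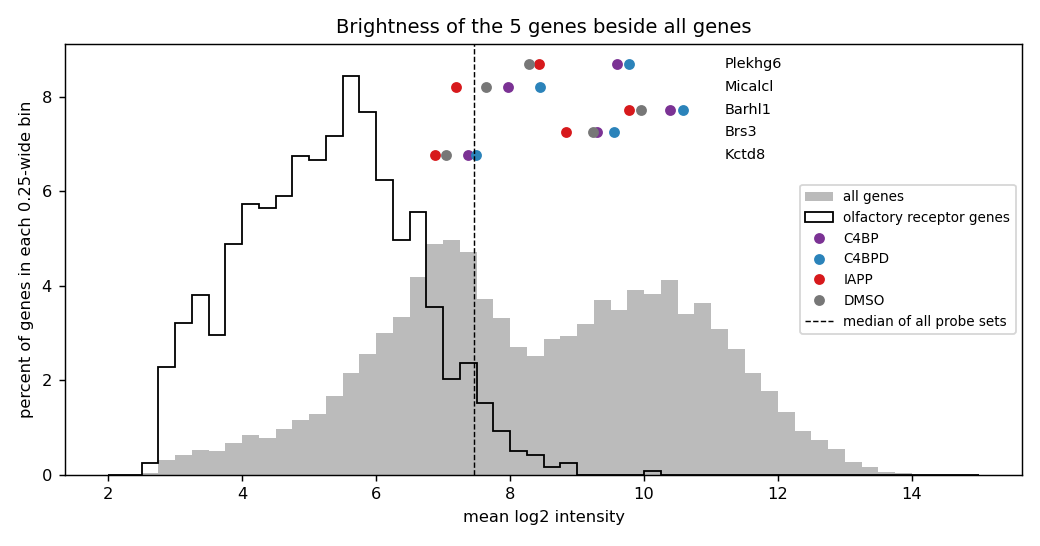
Percent of genes (vertical axis) by mean log2 intensity over 20 arrays (horizontal axis, bins of 0.25), for all 18166 genes (grey) and the 1185 olfactory receptor genes (outline); the points above give each of the 5 genes' group means at their place on the horizontal axis only. Kctd8 and, in IAPP wells, Micalcl lie near the dashed median of all probe sets (7.47), and the others lie to its right.

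Over all genes, 0.374% rose past the threshold in C4BP over IAPP and 1.17% in C4BPD over DMSO (limma, adjusted p under 0.05 over 18166 genes). All 5 genes are among them, which the choice of the genes fixes. Separation of all 5 C4BP arrays above all 5 IAPP arrays was seen in 1.48% of genes, and of all C4BPD above all DMSO arrays in 1.99%, and both in 0.506%. In the averaged C4BP contrast, ranked from the largest rise down, Micalcl had rank 4, Barhl1 rank 9, Kctd8 rank 18 and Brs3 rank 28 of 18166. Of C4BP over DMSO wells, the comparison in which both agents differ, the log2 differences were 1.32 for Plekhg6, 0.43 for Barhl1, 0.33 for Micalcl, 0.32 for Kctd8 and 0.06 for Brs3.

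The IAPP effect was taken as the mean of C4BP minus C4BPD and IAPP minus DMSO. In a balanced design its estimate is independent of C4BP minus IAPP and of C4BPD minus DMSO. It is not independent of C4BP over DMSO or C4BPD over IAPP, and which comparisons the choice used is not stated. The IAPP and C4BP contrasts use the same estimate of each gene's spread. A choice of genes with clear C4BP differences may favour a small spread, so the p-values below may be too small. Micalcl fell by 0.46 on the log2 scale (95% interval -0.56 to -0.36; limma, adjusted p = 1.95e-06), lower than the partner group's mean in 10 of 10 arrays. Brs3 fell by 0.33 (95% interval -0.42 to -0.25; adjusted p = 1.35e-05), also in 10 of 10 arrays. Barhl1 fell by 0.18 (95% interval -0.26 to -0.10; adjusted p = 0.00449), in 10 of 10. Kctd8 fell by 0.14 (95% interval -0.22 to -0.06; adjusted p = 0.0281), in 9 of 10. Plekhg6 was at -0.01 (95% interval -0.12 to 0.10; adjusted p = 0.927), with 5 of 10 arrays lower. In all 4 of 5 were lower and 0 higher, where 4.47% of all genes were lower, with a median of -0.18 over the 5 against 0.01 over all genes.

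The 2 differences averaged in that contrast share arrays with the C4BP differences and are given with no test. Micalcl differed by -0.49 in C4BP over C4BPD and by -0.44 in IAPP over DMSO. Brs3 differed by -0.25 and by -0.41, Barhl1 by -0.19 and by -0.18, and Kctd8 by -0.12 and by -0.16 in the same order. Plekhg6 differed by -0.18 in C4BP over C4BPD and by 0.16 in IAPP over DMSO, in opposite directions. All 5 IAPP arrays were below all 5 DMSO arrays for Micalcl, Barhl1 and Brs3, as for 2.69% of genes. All 5 C4BP arrays were below all 5 C4BPD arrays for Micalcl, as for 2.37% of genes, and 1.12% of genes, Micalcl among them, did both.

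**Figure D3:**
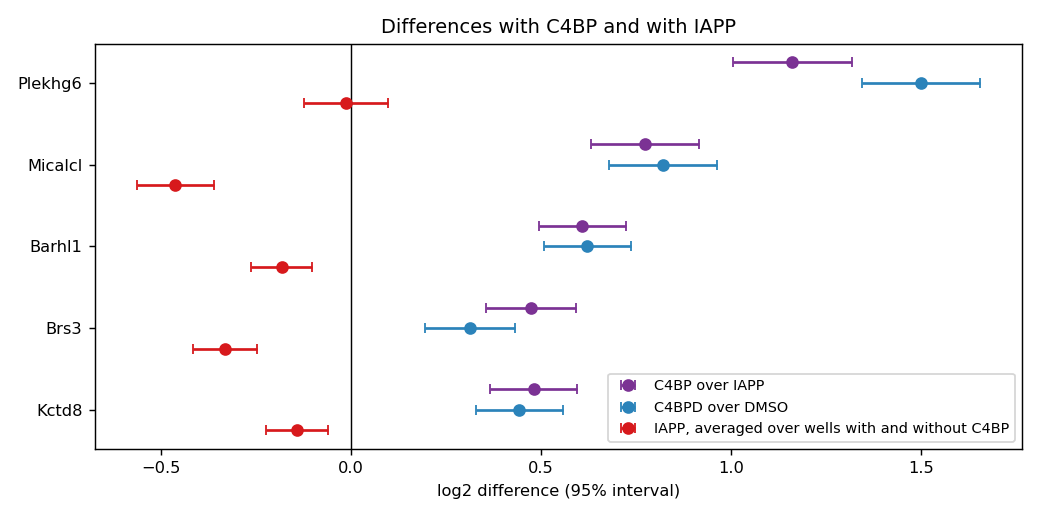
Log2 difference (horizontal axis, with 95% interval from the limma fit) of each of the 5 genes in C4BP over IAPP, in C4BPD over DMSO, and with IAPP averaged over wells with and without C4BP. All C4BP differences lie right of 0 and run from 0.31 for Brs3 to 1.50 for Plekhg6, and the IAPP intervals of 4 genes lie left of 0 while that of Plekhg6 spans it.

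The Kctd8 call for IAPP is the least firm of these. It was lost without 1 array of C4BP 2 (adjusted p = 0.054), C4BPD 3 (0.0575), C4BPD 5 (0.0576), IAPP 3 (0.053) or DMSO 2 (0.0586), without all arrays numbered 1, 2, 4 or 5 (0.0601 to 0.136), and over all probe sets (0.0632). The IAPP falls also rest on the reading of the titles: with C4BP and C4BPD read the other way, an alternative added after the data were seen, none of the 5 passed and Micalcl was at 0.02, while the averaged C4BP differences stay as they are by construction. Grouped by the treatment field, none of the 4 falls passed: Micalcl was at -0.034, Brs3 at -0.036, Barhl1 at -0.080 and Kctd8 at -0.065.

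Relatives and partners of the 5 genes were taken from fixed lists of family members, partners and other genes linked to them. The Barhl1 list also holds Atoh, Pou4f and Lhx genes, which are not Bar genes. The Micalcl list holds Mical2, which RefSeq places in the same gene. Of 44 measured out of 52, 1 rose and 0 fell with C4BP in the averaged contrast, where 2.53% of all genes rose and 1.53% fell (limma, adjusted p under 0.05). With IAPP, 2 of the 44 fell and 0 rose, where 4.47% of all genes fell and 3.11% rose. Their median log2 difference was 0.00 with either agent. At an unadjusted p under 0.05, 8 of the 44 passed with C4BP and 5 with IAPP, against 14.9% and 18.8% of all genes. The plot of both averaged effects shows most of them near the origin.

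**Figure D4:**
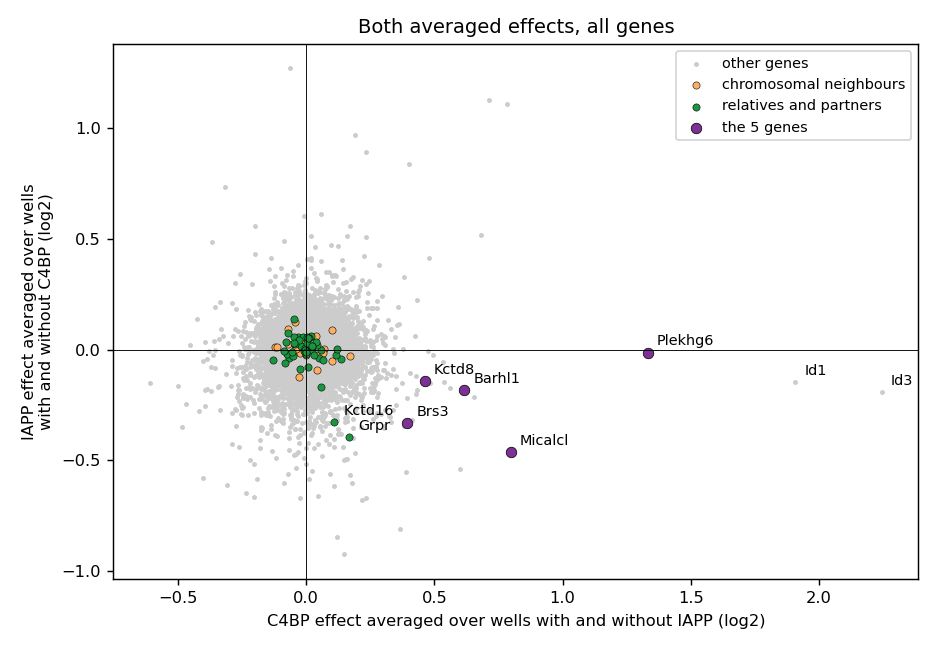
Averaged C4BP effect (horizontal axis, log2) against averaged IAPP effect (vertical axis, log2) for all 18166 genes (grey), with the 5 genes, 44 relatives and partners, and 20 chromosomal neighbours in colour. Micalcl, Brs3, Barhl1 and Kctd8 lie right of and below the origin, Plekhg6 lies right of it at -0.01, and of the relatives Grpr and Kctd16 lie lowest.

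Among 14 measured relatives and partners of Plekhg6 (among them other Plekhg exchange factors, ezrin, myosin heavy chains and cytokinesis proteins), Kif23 rose with C4BP. Kif23, a kinesin of the central spindle in dividing cells, had an intensity of 1291 ± 43.4 in C4BP and 1171 ± 17.4 in IAPP wells, and 1323 ± 56.4 in C4BPD and 1209 ± 38.1 in DMSO wells (SD, n = 5 each). The averaged difference was 0.14 on the log2 scale (adjusted p = 0.0035), in 10 of 10 arrays, and the call was lost without all arrays numbered 3 (0.0532) or 4 (0.0642). None of the 5 other Plekhg genes measured passed, from -0.03 for Plekhg4 to 0.05 for Plekhg3.

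For Brs3, 7 relatives and partners were measured, among them the gastrin-releasing peptide receptor Grpr, the ligands Grp and Nmb, and Gq and phospholipase C subunits. None passed with C4BP in limma, 3 of 7 at an unadjusted p under 0.05 (14.9% of all genes). Grpr, a bombesin receptor like Brs3, fell by 0.39 with IAPP (adjusted p = 0.000192), in 10 of 10 arrays. Its intensity was 103 ± 11.0 in C4BP and 146 ± 16.4 in C4BPD wells, and 99.0 ± 7.54 in IAPP and 121 ± 12.6 in DMSO wells (SD, n = 5 each), all under the 95th percentile of olfactory receptor genes, so this signal may be no more than background. With C4BP it was at 0.17 (adjusted p = 0.159).

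For Kctd8, all 8 relatives and partners were measured. None passed with C4BP in limma, 2 of 8 at an unadjusted p under 0.05 (14.9% of all genes). Kctd16, another GABA-B auxiliary subunit, fell by 0.33 with IAPP (adjusted p = 0.000133), in 10 of 10 arrays. Its intensity was 465 ± 44.9 in C4BP and 577 ± 24.0 in C4BPD wells, and 428 ± 38.0 in IAPP and 540 ± 36.6 in DMSO wells (SD, n = 5 each). With C4BP it was at 0.11 (adjusted p = 0.287). Kctd12, the other subunit of this kind on the list, was at 0.02 with C4BP and 0.02 with IAPP. The receptor genes themselves did not pass: Gabbr1 was at 0.06 with C4BP and -0.05 with IAPP, and Gabbr2 at -0.08 and -0.06.

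For Micalcl and Barhl1 no gene on the list passed with either agent, that of Micalcl counting Mical2. Of 6 measured for Micalcl, 1 had an unadjusted p under 0.05 with C4BP and 0 with IAPP, where 14.9% and 18.8% of all genes did. The smallest was that of Mical3, at -0.09 with C4BP (adjusted p = 0.0541). Of 9 measured for Barhl1, 1 had an unadjusted p under 0.05 with C4BP and 0 with IAPP. That 1 was Atoh7, at -0.13 with C4BP (adjusted p = 0.205), the opposite direction to Barhl1. Barhl2, its closest relative, was at 0.04 with C4BP and 0.03 with IAPP, and Atoh1, which acts upstream of Barhl1 in mouse, at -0.07 and 0.08.

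The 5 genes lie on different chromosomes. Of 20 chromosomal neighbours, the 2 nearest measured genes on each side of each, 1 rose and 0 fell with C4BP, where 2.53% of all genes rose and 1.53% fell. With IAPP 1 rose and 0 fell, where 3.11% rose and 4.47% fell. The gene that rose with C4BP was Ddx31, an RNA helicase gene beside Barhl1, at 912 ± 48.3 in C4BP and 818 ± 42.4 in IAPP wells, and 940 ± 57.4 in C4BPD and 828 ± 47.6 in DMSO wells (SD, n = 5 each). The averaged difference was 0.17 on the log2 scale (adjusted p = 0.00895), in 10 of 10 arrays, and the call was lost without all arrays numbered 2 (0.0567) or 4 (0.052). Gtf3c4, the next gene beyond Ddx31, was at 0.10 with C4BP (limma, adjusted p = 0.111), in 10 of 10 arrays. On the other side of Barhl1, Cfap77 was at 0.00 and Ttf1 at 0.07. Tnfrsf1a, the tumour necrosis factor receptor gene next to Plekhg6, was at -0.04 with C4BP (adjusted p = 0.471) and rose by 0.13 with IAPP (adjusted p = 0.00334), with 0 of 10 arrays lower. Parva and Dkk3, nearest to Micalcl, were at 0.04 and -0.12 with C4BP, and Htatsf1 and Fhl1, nearest to Brs3, at 0.05 and 0.10. Yipf7 and Grxcr1, nearest to Kctd8, were at -0.04 and -0.07, and none of these passed. Some nearest genes are far off: Tnfrsf1a lies 170 bases from Plekhg6, but Fhl1 lies 291790 bases from Brs3. From Kctd8, Yipf7 lies 174189 and Grxcr1 985959 bases away. At an unadjusted p under 0.05, in either direction, 6 of the 20 neighbours passed with C4BP and 4 with IAPP, against 14.9% and 18.8% of all genes.

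The genes whose log2 intensity over the 20 arrays was most like that of each of the 5 were found by Pearson correlation, which here mostly reflects the 4 group means and so the C4BP differences by which the 5 were chosen. Plekhg6 was most like Id1 (0.979), Id3 (0.977) and Rasgrp3 (0.976), an exchange factor for Ras. Barhl1 was most like Smad9 (0.959), which relays BMP signals, C14h4orf19 (0.950) and Id1 (0.940). Kctd8 was most like Barhl1 (0.932), Smad9 (0.922) and Id1 (0.917). Micalcl was most like Gstm4 (0.944), a glutathione transferase, the activin-type receptor Acvr1c (0.940) and Brs3 (0.932). Brs3 was most like Ripply3 (0.942), the glucocorticoid receptor Nr3c1 (0.940) and Micalcl (0.932). Between the 5 genes themselves the 10 correlations ran from 0.702 to 0.932, and after the group means were removed from -0.514 to 0.443 with a median of 0.022. After the group means were removed, the correlation with Id1 was 0.338 for Plekhg6, -0.340 for Barhl1 and -0.311 for Kctd8, and that with Id3 was 0.548, -0.795 and -0.247 for the same genes.

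Id1 had averaged differences of 1.91 with C4BP and -0.15 with IAPP on the log2 scale, and Id3 had 2.24 and -0.19. Smad7, an inhibitory SMAD, had a difference of 0.32 in C4BP over IAPP and 0.76 in C4BPD over DMSO, and its mean lay under the median of all probe sets.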

How the data were processed

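Intensities per probe set, on a linear scale, were deposited by the authors; the submitters' processing notes name Affymetrix Expression Console. Not given in the sources used here are its version, algorithm and annotation. The linear scale was read from the values, which run from 4.73 to 18574. No 2 arrays held identical values, and depth does not apply to arrays. Of 36685 probe sets, 190 controls were left out, and the brightest probe set with exactly 1 symbol in the GEO platform annotation stood for each of 18166 genes (291 genes had several).

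The log2 intensities of all 20 arrays were fitted with 4 title-group means in limma 3.58.1 (R 4.3.3; lmFit, eBayes, 16 residual degrees of freedom), with two-sided tests adjusted by Benjamini-Hochberg over all genes and a threshold of 0.05. The fit was tested on simulated data. The 5 genes, the lists of relatives and the tests were chosen with earlier results of these data known. Named beside the 5 genes are relatives and neighbours that passed or had the smallest p, some others of the lists given as values, the 3 most correlated genes of each, and Id1, Id3 and Smad7. Of each pair of groups, same-numbered arrays correlated over 0.1 in 2 to 5 of 5 cases after group means were removed. The medians ran from 0.0945 (IAPP and DMSO) to 0.318 (C4BP and IAPP), and this check cannot decide whether the numbers pair the wells. No label says what a number stands for, so the main fit had no block, and a fit with the number as a block is among the alternatives. Promoter sequences are RefSeq's (GRCr8). Plots were made in matplotlib 3.10.9 (Python 3.11.15). Alternatives covered scaling, pseudocount, array weights, variance trend, dim genes, probe sets, groups fitted, replicate block, arrays left out, the treatment field and the reading of the titles.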

Additional observations from a re-analysis of the deposited data

Results flagged for a closer look

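Barhl1 on array 1 of C4BPD had an intensity of 1723, against 1463 to 1518 on the other 4 arrays of that group, a gap of 0.774 of the group's range on the log2 scale, above the critical value of 0.71 for 5 samples. It was the only such array among 20 sets of 5 arrays checked (5 genes in 4 groups), and chance flags about 1 in 20. Without it the Barhl1 difference of C4BPD over DMSO was 0.58 on the log2 scale, and the IAPP effect was -0.16 (limma, adjusted p = 0.00628).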

How the results depend on the processing

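The C4BP differences of the 5 genes kept their direction in every alternative but grouping by the treatment field. Under that field the averaged C4BP differences were -0.46 for Plekhg6, -0.24 for Micalcl, -0.28 for Barhl1, -0.13 for Brs3, -0.16 for Kctd8, -0.025 for Kif23 and -0.041 for Ddx31. In the same order of the 5 genes, C4BP over IAPP was -0.53, -0.15, -0.28, -0.16 and -0.19, and C4BPD over DMSO was -0.39, -0.32, -0.28, -0.11 and -0.14. The IAPP effect was -0.034 for Micalcl, -0.036 for Brs3, -0.080 for Barhl1, -0.065 for Kctd8, 0.087 for Grpr, 0.053 for Kctd16 and -0.0058 for Tnfrsf1a. In limma 0 genes passed in any of the 5 contrasts (505 to 929 at an unadjusted p under 0.05). With C4BP and C4BPD read the other way, added after seeing the data, 9 genes passed for IAPP, where Micalcl was at 0.023, Barhl1 at 0.0065, Grpr at 0.11 and Tnfrsf1a at -0.00034.

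The number of genes past the threshold was 1377 for the averaged IAPP effect (732 to 1459 leaving out arrays, lowest without all arrays numbered 2), 738 for the averaged C4BP effect (346 to 852, lowest without number 3), 110 for C4BP over IAPP (18 to 135, lowest without number 4), 351 for C4BPD over DMSO (151 to 386, lowest without number 5) and 9 for the difference of these (0 to 10). Without all arrays of 1 number, the IAPP count was 732 (number 2), 749 (4) or 827 (5), the averaged C4BP count 421 (2), 346 (3), 368 (4) or 382 (5), C4BP over IAPP 66 (1), 28 (2), 45 (3), 18 (4) or 52 (5), and C4BPD over DMSO 173 (2), 167 (3), 170 (4) or 151 (5). Without 1 array, C4BP over IAPP had 58 to 73 genes for C4BP 4 or 5 or IAPP 2, 3 or 4, C4BPD over DMSO 217 to 233 for C4BPD 2 or 5 or DMSO 5. The difference of differences had 0 in limma without number 1, 3, 4 or 5 (524 to 816 at an unadjusted p under 0.05), 1 without number 2, and 3 to 5 without 1 of C4BP 3 or 4, C4BPD 2 to 5, IAPP 2 or 3, or DMSO 1 or 2. With the replicate number as a block the counts were 2252, 1536, 352, 797 and 18, and the numbers are not known to pair the wells. The block changed no call of the 5 genes or of the relatives and neighbours that passed in the main fit. Named genes that did not pass there were not followed under it. C4BP over IAPP had 201 without dim genes, 70 over all probe sets and 33 with only its groups fitted. C4BPD over DMSO had 644 when arrays were weighted, 226 over all probe sets and 208 with only its groups fitted. The difference of differences had 0 in limma over all probe sets (1405 at an unadjusted p under 0.05). The cause was not tested. The IAPP calls of Micalcl, Barhl1 and Brs3 held in all 25 fits that left out arrays (adjusted p up to 0.043, 0.000799 for Brs3 and 0.000223 for Micalcl) and under the 8 other settings of scaling, weighting, filtering and blocking (up to 0.0125). Kctd8, dim in 3 groups, had no value once dim genes were left out.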
